A study of Mus musculus with 1920 samples.

Results

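Low-cycle cells were sorted Lgr5high ISCs with little mRNA of either the S phase or the mitosis machinery, and 529 of the 1920 cells sequenced belonged to this group. They were selected on measured values. Cells with at least 1000 detected genes (1836 cells) and with Lgr5 at 50 CPM or more and Olfm4 at 1000 CPM or more (CPM, a gene's count scaled to the cell's total), which both mark ISCs, formed a base set of 1588 cells. In each of these a mitosis score and an S phase score were computed, as the mean of log2(CPM + 1) over 10 genes each. The 529 cells with the highest mitosis scores over all mice together were set aside as G2 and mitosis cells. Of the cells left, the 529 with the lower S phase scores were the low-cycle cells and the other 530 the S-phase cells.

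ISCs sit at the base of the crypt between Paneth cells and keep the epithelium supplied by frequent division, so at any time they are spread over the phases of the cycle. Cyclin D and cyclin E with their kinases release E2F factors at the end of G1, and E2F then switches on genes for DNA replication. Genes for mitosis follow in G2, many of them through a promoter element called CHR. A cell low in both programs lies in G1 or has paused outside the cycle, and mRNA of cycle genes alone does not separate these states.

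Small intestine from 3 young mice and 4 aged mice was used, and the study compared ISCs between the ages. All mice carried the same Lgr5 allele, B6.129P2-Lgr5tm1(cre/ERT2)Cle/J, a knock-in that places green fluorescent protein and a tamoxifen-inducible Cre at the Lgr5 locus and was backcrossed to C57BL/6. No treatment is given in the labels for these mice, and the sources used here do not give their ages. Cells with a high green fluorescent protein signal were sorted after staining with annexin V and 7-AAD, which mark dying cells, and PCR-amplified full-length cDNA was sequenced, with no molecular identifiers. Young mice 1, 2 and 3 gave 43, 95 and 169 low-cycle cells, and aged mice 1, 2, 3 and 4 gave 72, 55, 21 and 74. A low-cycle cell had a median of 308819 reads on genes (range 1695 to 1626260) and 8547 detected genes (range 1048 to 12217), and the reads summed over the low-cycle cells of a mouse ranged from 5364092 in aged mouse 3 to 60219898 in young mouse 3.

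The promoters of 4 genes whose mRNA chose the cells are shown as examples of windows with matches to the E2F-type motif, the CHR motif or both. The windows are the 180 bases before the transcript start from RefSeq (GRCm38.p6), printed 5′ to 3′ on the strand of the gene. Capitals mark matches to the E2F-type motif TTTNNCGC or to the CHR motif TTTGAA on either strand, and overlapping matches run together. Mcm5 and Mcm6 encode subunits of the replicative helicase, Cdk1 the kinase that drives entry into mitosis, and Top2a the topoisomerase that untangles sister chromosomes.
Mcm5 (chr8:75109329-75109508, plus strand): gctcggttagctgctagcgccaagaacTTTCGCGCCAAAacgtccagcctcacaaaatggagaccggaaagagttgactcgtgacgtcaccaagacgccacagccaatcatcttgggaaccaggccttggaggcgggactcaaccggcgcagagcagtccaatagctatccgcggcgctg
Mcm6 (chr1:128359706-128359885, minus strand): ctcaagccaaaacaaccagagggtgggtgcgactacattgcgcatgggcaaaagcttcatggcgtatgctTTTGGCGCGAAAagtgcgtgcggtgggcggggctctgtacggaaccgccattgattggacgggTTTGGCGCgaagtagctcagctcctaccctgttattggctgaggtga
Cdk1 (chr10:69352913-69353092, minus strand): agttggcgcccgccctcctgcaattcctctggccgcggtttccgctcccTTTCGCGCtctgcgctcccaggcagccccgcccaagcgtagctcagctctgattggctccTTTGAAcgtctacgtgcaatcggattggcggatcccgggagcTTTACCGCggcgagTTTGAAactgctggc
Top2a (chr11:99024190-99024369, minus strand): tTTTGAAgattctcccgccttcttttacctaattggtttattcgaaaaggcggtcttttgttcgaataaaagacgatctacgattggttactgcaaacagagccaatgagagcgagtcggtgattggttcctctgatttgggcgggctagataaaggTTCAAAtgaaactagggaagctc
The windows of Mcm5 and Mcm6 held 2 and 3 matches to the E2F-type motif, that of Cdk1 held 2 of each motif, and that of Top2a held 2 CHR matches. Among the S phase genes of the score, 9 of 10 had a window and 4 of these held the E2F-type motif, against 3.21% of all 32851 windows of this length. Among the mitosis genes of the score, 8 of 10 had a window and 6 of these held the CHR motif, against 11.0% of all windows. Of further S phase genes 3 of 16 held the E2F-type motif, and of further mitosis genes 3 of 18 held the CHR motif. A match describes these letters and does not show that a factor binds there.

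Both cuts were set by rank and fell within a continuous range of scores. The lowest mitosis score set aside was 6.37 and the highest score left was 6.33, with 43 cells of the base set within 0.25 of the cut. The highest S phase score of a low-cycle cell and the lowest of an S-phase cell were both 5.11, and 99 cells lay within 0.25 of this cut. Low-cycle cells had a median mitosis score of 1.01 and a median S phase score of 3.34. In 42 of them no read fell on any of the 10 mitosis genes, whereas each had a read on at least 1 of the 10 S phase genes.

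**Figure D1:**
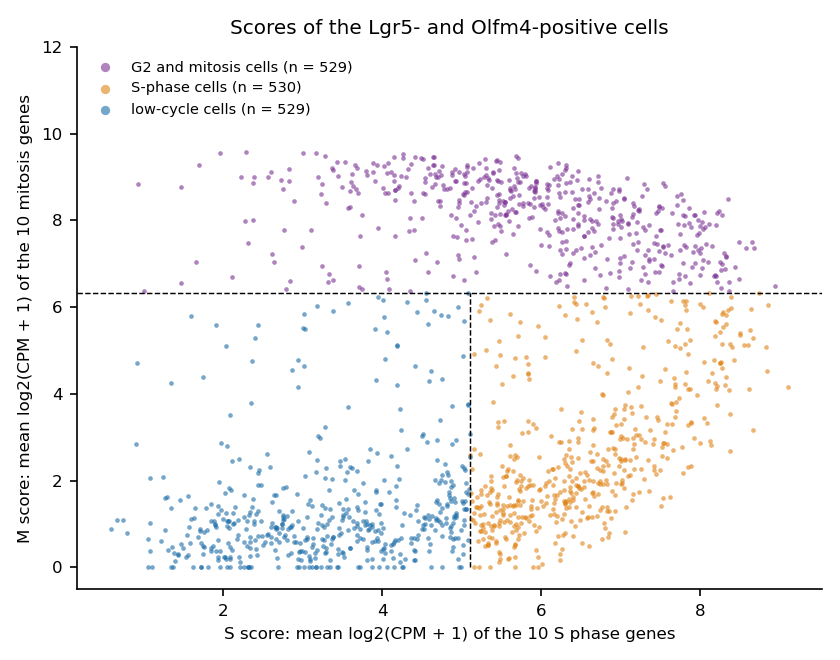
Mitosis score against S phase score, both as mean log2(CPM + 1) of 10 genes, with a point for each of the 1588 cells and dashed lines at the cuts. The 529 low-cycle cells fill the lower left, below scores of 6.33 and 5.11, and adjoin the S-phase cells without a gap.

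The genes used for the selection are given as a description. Levels are CPM of the counts summed over the cells of a state in each mouse, scaled together over the 21 sums. Mcm5 ranged from 20.4 to 53.4 CPM over the 7 mice (median 31.2) in low-cycle cells and from 171 to 315 CPM (median 250) in S-phase cells. Cdk1 ranged from 3.27 to 9.04 CPM (median 6.05) in low-cycle cells, 22.5 to 104 CPM (median 40.6) in S-phase cells and 217 to 278 CPM (median 244) in G2 and mitosis cells. Lgr5, the R-spondin receptor, stood at 575, 631 and 584 CPM in low-cycle cells of young mice 1, 2 and 3 and at 487, 445, 326 and 432 CPM in those of aged mice 1, 2, 3 and 4. All aged mice lay below all young mice for Lgr5, as they did for 3.07% of all genes tested between the ages, and aged mouse 3 was lowest. Olfm4, a secreted glycoprotein of ISCs, ranged from 11640 to 22962 CPM (median 16749) in low-cycle cells and from 13693 to 19698 CPM (median 16618) in S-phase cells.

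The share of low-cycle cells differed widely between mice of the same age. They made up 30.7%, 27.1% and 48.6% of the base set in young mice 1, 2 and 3 and 43.1%, 35.9%, 15.3% and 25.3% in aged mice 1, 2, 3 and 4. The ranges of the ages overlapped, with young mouse 3 highest and aged mouse 3 lowest. Aged mice averaged 29.9% ± 12.2 (SD, n = 4), and young mice 35.5% ± 11.5 (SD, n = 3). This difference of -5.56 points was within the spread (two-sided exact permutation test, p = 0.571, where 0.0571 is the smallest p this design gives). Without young mouse 3 the difference was 0.983 points, and without aged mouse 3 it was -0.701. Cell names end in a code, of which there are 5 and whose meaning the labels do not give. Young mouse 3 and aged mouse 4 were each alone under theirs. Under the 3 codes shared by both ages, aged mouse 1 had 43.1% and young mouse 2 26.2%, aged mouse 2 had 35.9% and young mouse 2 28.1%, and aged mouse 3 had 15.3% and young mouse 1 30.7%, so the direction differed between codes.

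**Figure D2:**
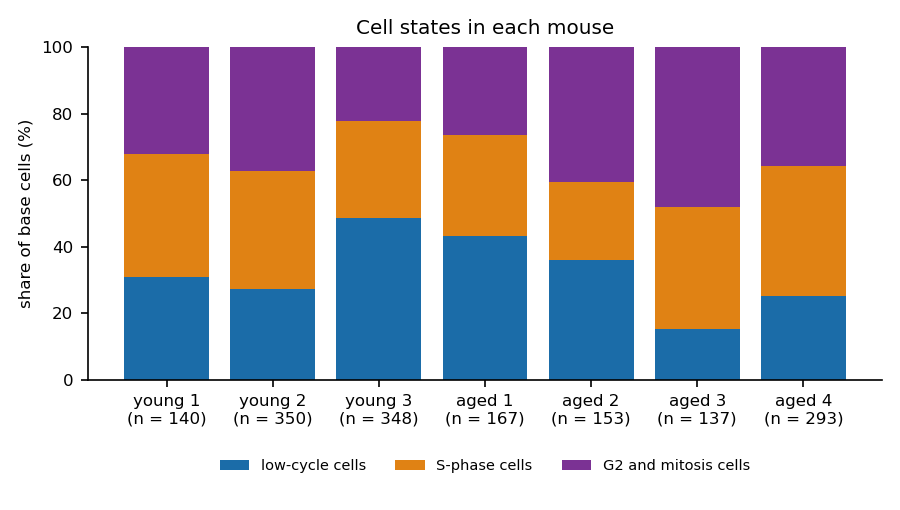
Stacked bars of the share of base cells (%) in each state, with a bar for each mouse and its number of base cells under it. The low-cycle share runs from 15.3% in aged mouse 3 to 48.6% in young mouse 3, and the ages overlap.

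Low-cycle cells held fewer detected genes than cycling cells at a similar number of reads. The median number of detected genes in low-cycle cells fell by 863 ± 298 (SD, 7 mice) from S-phase cells of the same mouse and was lower in 7 of 7 mice (exact permutation test over sign flips, two-sided, p = 0.0156, the smallest that 7 mice allow). Against G2 and mitosis cells the median fell by 1296 ± 306 (SD, 7 mice), again in 7 of 7 mice (exact permutation test, p = 0.0156). The median number of reads differed by -24800 ± 31189 (SD, 7 mice) from S-phase cells, lower in 5 of 7 mice, which was not larger than the spread (exact permutation test, p = 0.109). With every cell thinned to 100000 reads, which left out 27 low-cycle cells of lower depth, the median still fell by 858 (exact permutation test, 7 mice, p = 0.0156). The scores drop with each score gene that has no read, so the selection can itself favor cells with fewer detected genes. Low-cycle cells had a median of 6 of the 10 S phase genes with a read, against 9 in S-phase cells. Thinned cells were selected by the same rule, and how far the fall goes beyond the selection was not tested.

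Besides ISC markers, some low-cycle cells carried high levels of markers of other epithelial cells. When 20 ISC genes (Lgr5, Olfm4 and 18 others) and 7 lists of other cell types were scored in each cell as mean log2(CPM + 1), the ISC list was highest in 436 low-cycle cells (82.4%). Paneth markers led in 50 cells (9.45%), enterocyte markers in 23 (4.35%), goblet markers in 15 (2.84%), tuft markers in 4 and enteroendocrine markers in 1, whereas immune and stromal markers led in 0 of 529. The cells led by Paneth markers had a median of 105 CPM of Lgr5, 3246 CPM of Olfm4 and 251878 reads, and the cells led by ISC markers had 522 CPM of Lgr5, 17616 CPM of Olfm4 and 315414 reads. So the 93 cells led by another list met the Lgr5 and Olfm4 thresholds of the selection at lower levels. Their name as ISCs rests on those thresholds and on the sort alone.

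The share of low-cycle cells led by another list was 16.3%, 11.6% and 6.51% in young mice 1, 2 and 3 and 6.94%, 32.7%, 47.6% and 41.9% in aged mice 1, 2, 3 and 4. Aged mice 2, 3 and 4 lay above all young mice and aged mouse 1 lay among them. The means, 32.3% ± 18.0 (SD, n = 4) for aged mice against 11.5% ± 4.89 (SD, n = 3) for young mice, did not differ beyond the spread (two-sided exact permutation test, p = 0.171). Within mice this share was 13.8 points higher in low-cycle than in S-phase cells, in 7 of 7 mice (exact permutation test, p = 0.0156), and 14.0 points higher than in G2 and mitosis cells, in 5 of 7 mice (exact permutation test, p = 0.0625). The summed level of the 11 Paneth markers ranged from 10920 to 157920 CPM in low-cycle cells, highest in aged mouse 3, from 974 to 28451 CPM in S-phase cells and from 1208 to 6765 CPM in G2 and mitosis cells. The 12 enterocyte markers summed to 977 to 4487 CPM in low-cycle cells and 851 to 1999 CPM in S-phase cells, and 8 immune markers to 1.35 to 5.65 CPM in low-cycle cells. None of the Paneth, enterocyte or immune markers was at 0 over all low-cycle cells. Their part in the differences given next was not tested, and each comparison was also fitted on the cells led by ISC markers alone.

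Against S-phase cells of the same mice, low-cycle cells had higher levels of Mxd4 and lower levels of genes for cyclin E, E2F factors and nucleolar proteins. Sums per mouse were compared by the quasi-likelihood test of edgeR, with the mouse as a block. Adjustment by Benjamini-Hochberg ran over all genes tested, those of the selection included, which can make the threshold less strict for the others. The counts given here leave out the genes of the scores, Lgr5, Olfm4 and the other S phase and mitosis genes of the lists. That left 16454 genes. Of these genes 1222 (7.43%) passed at an adjusted p below 0.05, with 407 (2.47%) higher and 815 (4.95%) lower in low-cycle cells. Passing aside, 4.49% of genes were higher and 6.86% lower in low-cycle cells in all 7 mice. Without aged mouse 2, young mouse 2 or young mouse 3 the calls numbered 699, 740 and 789 in place of 1222. The p values measure the spread between these 7 mice.

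Of 23 genes that restrain the cycle, 5 rose and 1 fell, with a median log2 difference of 0.31 where the median of all genes tested was 0.01. Mxd4, which encodes a partner of Max that opposes Myc, ranged from 35.9 to 88.1 CPM (median 54.8) in low-cycle cells and from 19.1 to 27.7 CPM (median 26.3) in S-phase cells. All low-cycle sums of Mxd4 lay above all S-phase sums, with a log2 difference of 1.07 (SE 0.14, 7 mice, edgeR adjusted p = 0.00101). It was 1.17 (edgeR adjusted p = 0.00063) in the cells led by ISC markers. Ccng2, an atypical cyclin, ranged from 7.50 to 21.8 CPM in low-cycle and 1.06 to 11.7 CPM in S-phase cells and rose by 1.14 (SE 0.29, edgeR adjusted p = 0.0361, higher in 6 of 7 mice). Btg2, an antiproliferative gene, rose by 0.61 (edgeR adjusted p = 0.0381, higher in 6 of 7 mice), Pdcd4, an inhibitor of translation, by 0.36 (adjusted p = 0.0166) and Cdkn2b, which encodes the inhibitor p15, by 2.49 (adjusted p = 0.0249). Cdkn2b was low throughout, at 0.653 to 5.15 CPM in low-cycle cells of 6 mice and 28.9 CPM in aged mouse 3. The gene that fell was Rbl1, which encodes the pocket protein p107 and is itself made in S phase, with 7.79 to 23.5 CPM in low-cycle and 25.3 to 44.5 CPM in S-phase cells (log2 difference -1.55, edgeR adjusted p = 0.000258).

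Several of these calls depended on single mice. Ccng2 lost its call without aged mouse 3, aged mouse 4 or any 1 of the young mice (edgeR adjusted p from 0.065 to 0.099), and so did Btg2 (0.0764 to 0.107). Pdcd4 lost it without aged mouse 2 (0.0514) or young mouse 3 (0.057). Cdkn2b lost it without aged mouse 2 (0.0503), aged mouse 3 (0.0779), young mouse 1 (0.0565) or young mouse 3 (0.0675). Mxd4 and Rbl1 passed in every fit that left out a mouse. The inhibitors Cdkn1a (log2 difference 0.54) and Cdkn1b (0.12), which encode p21 and p27, did not pass.

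Kdm5b, Hist1h2bc, Lbh and Pdgfa were chosen after their values were seen, so their p values do not allow for that choice. Each was higher in low-cycle cells in 7 of 7 mice. Kdm5b, a demethylase of histone H3 lysine, ranged from 61.2 to 92.0 CPM (median 72.3) in low-cycle cells and from 18.2 to 44.8 CPM (median 37.6) in S-phase cells, without overlap, and rose by 1.09 on the log2 scale (SE 0.16, edgeR adjusted p = 0.00223). Hist1h2bc, a histone H2B gene, ranged from 34.5 to 70.2 CPM in low-cycle and 13.1 to 28.9 CPM in S-phase cells, without overlap, and rose by 1.22 (SE 0.10, edgeR adjusted p = 6.61e-05). Lbh, a transcription cofactor linked to Wnt signaling, rose by 0.86 (SE 0.10, adjusted p = 0.000391) and Pdgfa, a platelet-derived growth factor, by 0.80 (SE 0.10, adjusted p = 0.000836). Their sums overlapped between states, and the differences lay within mice. All 4 passed in the cells led by ISC markers and in every fit that left out a mouse. Without the mouse as a block Lbh (adjusted p = 0.062) and Pdgfa (0.0692) did not pass.

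**Figure D3:**
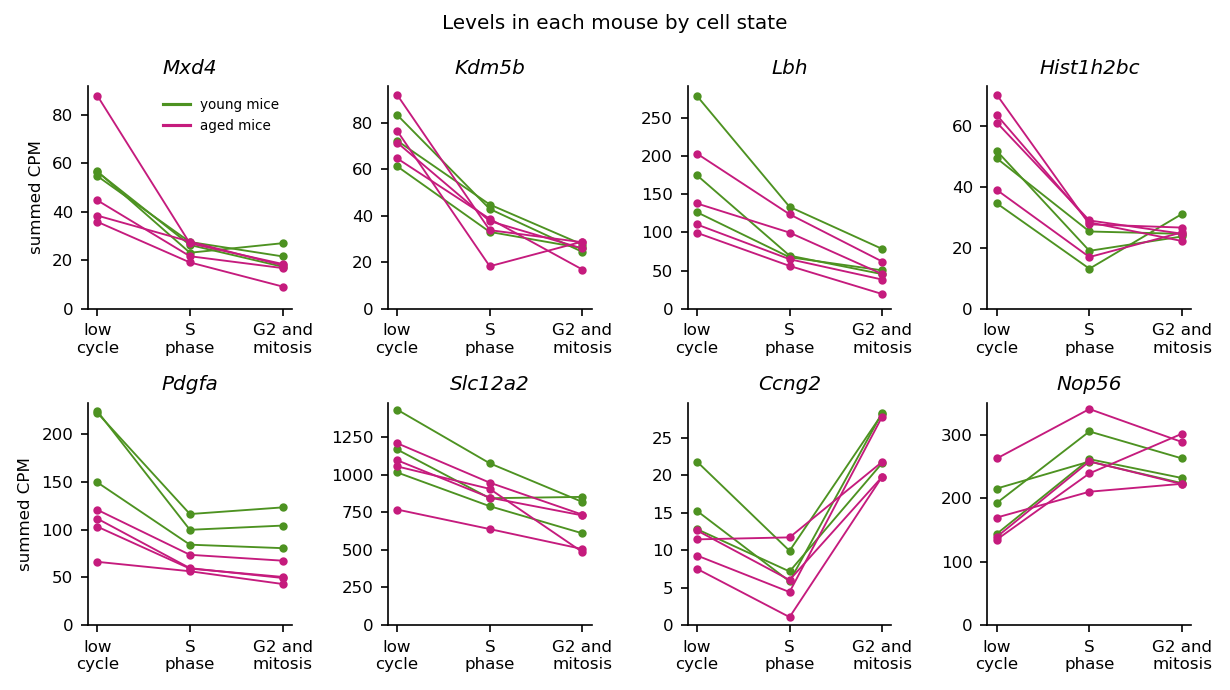
Summed CPM (vertical axis, from 0) of 8 genes in low-cycle, S-phase and G2 and mitosis cells, with a line for each young (green) and aged (magenta) mouse. Mxd4, Kdm5b, Lbh, Pdgfa and Slc12a2 lie higher in low-cycle than in S-phase cells of each mouse, Nop56 lies lower, and Ccng2 is highest in G2 and mitosis cells.

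Of 14 genes for G1 cyclins, their kinases and E2F factors, 10 fell and 0 rose, with a median log2 difference of -0.74. Ccne2, a cyclin E, ranged from 1.26 to 3.84 CPM (median 2.73) in low-cycle and from 16.3 to 46.9 CPM (median 21.9) in S-phase cells, without overlap, and fell by 3.47 on the log2 scale (SE 0.28, edgeR adjusted p = 4.38e-05). Ccne1 stood at 0 to 1.07 CPM in low-cycle cells and 8.16 to 17.9 CPM in S-phase cells. E2f2 fell by 3.09 (adjusted p = 0.000826), E2f3 by 1.30 (adjusted p = 0.00384) and Cdk2, the partner of cyclin E, by 1.04 (adjusted p = 0.00166), and all of these passed in the cells led by ISC markers. The D cyclins moved less: Ccnd2 fell by 0.35 (adjusted p = 0.00811) and Ccnd1 by 0.33 (adjusted p = 0.0229), and neither passed in the cells led by ISC markers (adjusted p = 0.175 and 0.102). Ccnd1 also lost its call without aged mouse 2, aged mouse 3, young mouse 2 or young mouse 3 (adjusted p from 0.0521 to 0.0745). E2F factors and cyclin E belong to the G1 to S program next to the genes that chose the cells, so their falls describe the selection in part.

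All 16 genes for ribosome biogenesis had lower values in low-cycle than in S-phase cells, and 6 of them fell, with a median log2 difference of -0.26. Nop56, a core protein of the nucleolar particles that modify ribosomal RNA, ranged from 135 to 263 CPM (median 170) in low-cycle and 210 to 341 CPM (median 258) in S-phase cells and fell by 0.61 on the log2 scale in 7 of 7 mice (SE 0.10, edgeR adjusted p = 0.00357). Its partner Nop58 ranged from 151 to 228 CPM and 247 to 356 CPM, without overlap, and fell by 0.50 (adjusted p = 0.00384). Both passed in every fit that left out a mouse and in the cells led by ISC markers, where 3 of the 16 fell. The other 4 calls, of Dkc1, Ncl, Nolc1 and Npm1, were lost without aged mouse 2 (adjusted p = 0.0555, 0.0815, 0.0539 and 0.0745). Those of Ncl, Nolc1 and Npm1 were also lost without young mouse 3 (0.0727, 0.054 and 0.0716), those of Ncl and Nolc1 without young mouse 2 (0.0787 and 0.0515), that of Ncl without aged mouse 3 (0.0505) or young mouse 1 (0.0631) and that of Npm1 without aged mouse 4 (0.0744). Of 82 cytosolic ribosomal protein genes 0 passed, with a median log2 difference of -0.08.

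The genes with the largest falls under the naming rule were known S phase and DNA repair genes, the class that the selection acted on, so they are given as values. Kntc1, a kinetochore protein, stood at 0.0592 to 1.45 CPM in low-cycle cells of 6 mice and 22.3 CPM in young mouse 1, against 19.1 to 48.2 CPM in S-phase cells. Brca1 (log2 difference -4.25), Tcf19 (-4.10), Fam111a (-3.88), Exo1 (-3.81), Fignl1 (-3.62), Pclaf (-3.45), Asf1b (-3.21), Rad54b (-3.15) and Cdc7 (-3.09) were the others. Of the 22 further S phase genes of the lists all had lower levels in low-cycle cells, with a median log2 difference of -2.07, and the 20 further mitosis genes had a median of -1.15.

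ISC markers differed little from S-phase cells. Of 18 markers not used in the selection, 1 rose and 1 fell, with a median log2 difference of 0.16. Slc12a2, a chloride cotransporter of crypt cells, ranged from 769 to 1435 CPM (median 1098) in low-cycle and from 639 to 1077 CPM (median 849) in S-phase cells and was higher in 7 of 7 mice, by 0.34 (SE 0.05, edgeR adjusted p = 0.00189). This call was lost without the mouse as a block (adjusted p = 0.193). Aqp4, a water channel, fell by 0.39 (adjusted p = 0.0321), a call lost without aged mouse 1 (adjusted p = 0.0704), 2 (0.0915) or 4 (0.0653), without young mouse 1 (0.0603) or 3 (0.057), and in the cells led by ISC markers (0.0703). Among those cells 7 of the 18 markers rose and 0 fell, but these same markers helped decide which cells that fit kept. Of 16 Wnt targets 0 rose and 1 fell, of 38 adhesion genes 0 rose and 1 fell, and of 12 Notch and fate genes 2 rose. Hes1, the main Notch target, rose by 0.41 (adjusted p = 0.0255), a call lost without aged mouse 1 (adjusted p = 0.0581), aged mouse 4 (0.0634) or any 1 of the young mice (0.0501 to 0.0823).

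Markers of absorptive cells and markers of Paneth cells rose in low-cycle cells. Of 12 enterocyte markers 7 rose, with a median log2 difference of 2.37, and of 11 Paneth markers 8 rose, with a median of 2.24. Alpi, intestinal alkaline phosphatase, ranged from 10.3 to 166 CPM (median 40.8) in low-cycle and from 0.235 to 73.8 CPM (median 11.2) in S-phase cells and rose by 2.68 (SE 0.45, edgeR adjusted p = 0.0045). Lyz1, the lysozyme of Paneth cells, ranged from 1373 to 39531 CPM (median 7337) and from 263 to 7147 CPM (median 1409), and rose by 2.22 (SE 0.39, edgeR adjusted p = 0.00609). With cuts set within each mouse, Alpi (log2 difference 1.84, edgeR adjusted p = 0.112) and Lyz1 (1.82, adjusted p = 0.183) did not pass. Where ISC markers led, 0 of 12 enterocyte and 0 of 11 Paneth markers passed, and the list medians were 0.23 and 0.10. In those cells Alpi differed by 1.01 (edgeR adjusted p = 0.648) and Lyz1 by 0.08 (edgeR adjusted p = 0.815). Cells led by enterocyte or Paneth markers had been removed from that fit, so these smaller differences are in part set by the removal. Cyp2b10 (log2 difference 4.51), Cyp3a11 (4.37), Gm10680 (3.27), Apoa4 (3.22), Apoa1 (2.82), Alpi and the defensin genes Defa-ps6 (2.76), Defa-ps7 (2.74) and Defa30 (2.61) were among the largest rises under the naming rule. Apoa1 lost its call without aged mouse 2 (adjusted p = 0.102), aged mouse 3 (0.0773), young mouse 1 (0.0697) or young mouse 2 (0.0647). With cuts set within each mouse Cyp2b10 (edgeR adjusted p = 0.242), Cyp3a11 (0.357), Gm10680 (0.295), Apoa4 (0.271) and Apoa1 (0.232) lost their calls. So did Defa-ps6 (0.067) and Defa-ps7 (0.123). Cyp2b10 and Cyp3a11 are drug-metabolizing P450 enzymes, and Apoa1 and Apoa4 are apolipoproteins. Defensin genes are near-identical copies, so reads could be split among them and their single values are uncertain.

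**Figure D4:**
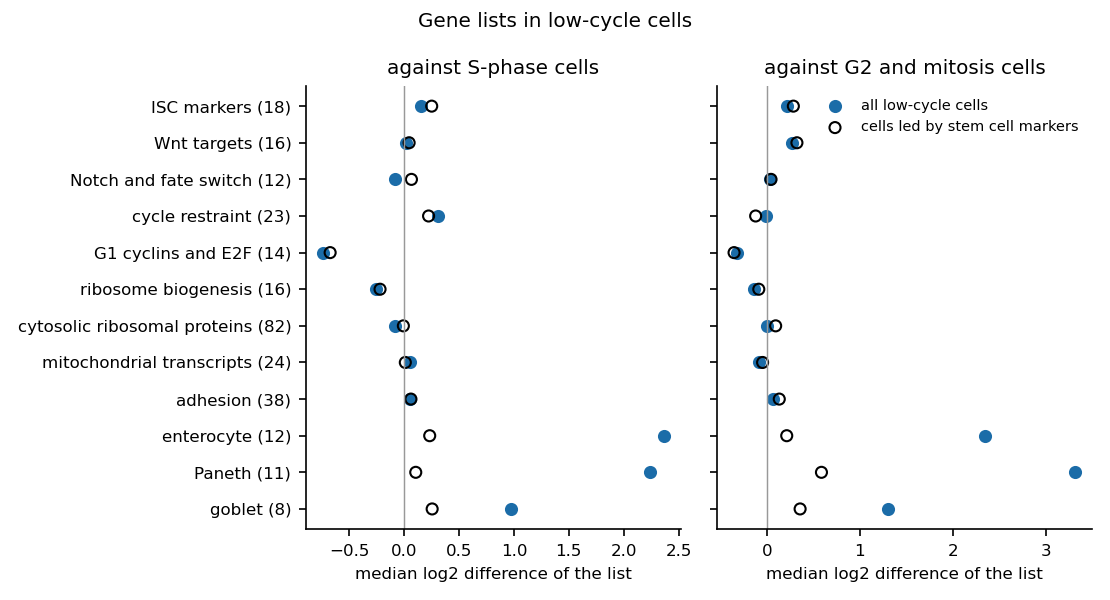
Median log2 difference of gene lists (number of genes tested against S-phase cells in parentheses) between low-cycle cells and S-phase cells (left) or G2 and mitosis cells (right), in all cells (blue) and in cells led by stem cell markers (open). The enterocyte and Paneth medians of 2.37 and 2.24 against S-phase cells become 0.23 and 0.10 in the cells led by stem cell markers. That of G1 cyclins and E2F moves from -0.74 to -0.68. Cells led by other lists were left out of the open points, so their ISC, enterocyte, Paneth and goblet medians are in part set by that choice.

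Against G2 and mitosis cells of the same mice the differences were larger and included several ISC markers. Of 16805 genes 3289 (19.6%) passed the same test, with 1461 (8.69%) higher and 1828 (10.9%) lower in low-cycle cells. Passing aside, 8.35% of genes were higher and 11.2% lower in all 7 mice. Of the 18 ISC markers 6 rose and 2 fell, with a median log2 difference of 0.22 against 0.03 for all genes. Slc12a2 ranged from 486 to 854 CPM (median 730) in G2 and mitosis cells, below its level in low-cycle cells in 7 of 7 mice, and rose by 0.71 (SE 0.08, adjusted p = 0.000119). Soat1, which esterifies cholesterol, ranged from 383 to 898 CPM (median 648) in low-cycle and from 373 to 538 CPM (median 453) in G2 and mitosis cells and rose by 0.53 (SE 0.10, adjusted p = 0.00276). Rnf43, a ligase that restrains Wnt receptors, rose by 0.42 (adjusted p = 0.00279), Igfbp4, which binds insulin-like growth factors, by 0.45 (adjusted p = 0.00383), Tnfrsf19, a receptor of the TNF family, by 0.67 (adjusted p = 0.00862) and Sox9, a transcription factor of crypt cells, by 0.56 (adjusted p = 0.0137). These 6 passed in every fit that left out a mouse. They also passed in the cells led by ISC markers, but they belong to the list that chose those cells.

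The 2 that fell were Aqp4 (log2 difference -0.37, edgeR adjusted p = 0.0083) and Ascl2, a transcription factor that maintains ISCs (-0.41, adjusted p = 0.0449). Ascl2 lost its call without aged mouse 2 (0.119), 3 (0.0692) or 4 (0.0793) or young mouse 2 (0.0924) or 3 (0.0933), and neither passed in the cells led by ISC markers (adjusted p = 0.114 for Aqp4 and 0.0671 for Ascl2). Of 16 Wnt targets 6 rose and 1 fell. Besides Rnf43, Tnfrsf19 and Sox9 these included Nkd1, a feedback inhibitor of Wnt signaling, with 7.71 to 21.2 CPM in low-cycle and 3.00 to 7.11 CPM in G2 and mitosis cells, without overlap (log2 difference 1.42, SE 0.22, adjusted p = 0.00114). Nkd1 differed by 1.12 (adjusted p = 0.0624) in the cells led by ISC markers.

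Genes that restrain the cycle went both ways in this comparison. Of the 23 genes 3 rose (Mxd4, Btg2 and Cdkn2b) and 5 fell, where 8.69% of all genes rose and 10.9% fell. Their median log2 difference was -0.01. Without aged mouse 1 Btg2 (edgeR adjusted p = 0.0833) and Cdkn2b (0.0757) lost their calls, which left 1 rise. Btg2 also lost its call without aged mouse 3 (0.088) or 4 (0.0924) or young mouse 1 (0.0903) or 2 (0.12), and Cdkn2b without aged mouse 2 (0.0547), 3 (0.0618) or 4 (0.0608) or young mouse 2 (0.063) or 3 (0.0502). Mxd4 ranged from 9.09 to 27.0 CPM in G2 and mitosis cells, below every low-cycle sum, and rose by 1.55 (SE 0.16, edgeR adjusted p = 7.55e-05). Cdkn1b, which encodes p27, ranged from 42.6 to 66.5 CPM (median 57.6) in low-cycle cells and from 72.0 to 101 CPM (median 93.8) in G2 and mitosis cells, without overlap, and fell by 0.68 on the log2 scale (SE 0.09, adjusted p = 0.000314). Cdkn2d (log2 difference -3.80, adjusted p = 0.000286) and Cdkn2c (-2.97, adjusted p = 0.000122), which encode p19 and p18, and Rbl1 (-2.02, adjusted p = 2.44e-05) also fell. Ccng2 fell by 0.93 (adjusted p = 0.00308) here, although it rose against S-phase cells. Kdm5b (log2 difference 1.55, adjusted p = 5.58e-06), Lbh (1.76, adjusted p = 4.5e-06), Hist1h2bc (1.02, adjusted p = 0.0017) and Pdgfa (0.93, adjusted p = 3.84e-05) rose in this comparison too. The comparisons share the low-cycle cells, so they are not independent of each other.

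Adhesion genes moved little against G2 and mitosis cells. Of 38 adhesion genes 5 rose and 1 fell, where 8.69% of all genes rose and 10.9% fell. Their median log2 difference was 0.06, and so few calls give no result about adhesion genes as a group. Lama5, a laminin chain of the epithelial basement membrane, ranged from 7.37 to 39.1 CPM (median 32.2) in low-cycle and from 5.14 to 24.8 CPM (median 6.95) in G2 and mitosis cells and rose by 1.47 (SE 0.33, edgeR adjusted p = 0.0104). Cldn4, a claudin of tight junctions, ranged from 9.17 to 50.6 CPM (median 33.6) and from 3.41 to 19.9 CPM (median 12.7) and rose by 1.45 (SE 0.34, adjusted p = 0.0132). Dag1, which encodes the laminin receptor dystroglycan, fell by 0.45 (adjusted p = 0.00307). All 3 passed in the cells led by ISC markers. Integrin and cadherin genes of the list did not pass.

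The strongest rises against G2 and mitosis cells were again Paneth and detoxification genes. Of 11 Paneth markers 10 rose, with a median log2 difference of 3.31, and of 12 enterocyte markers 8 rose, with a median of 2.35. Where ISC markers led, 2 Paneth markers and 3 enterocyte markers rose, 2 enterocyte markers fell, and the medians were 0.59 and 0.21. Here too the cells led by Paneth or enterocyte markers had been removed. Lyz1 ranged from 166 to 1398 CPM in G2 and mitosis cells and rose by 3.31 (SE 0.44, edgeR adjusted p = 0.000441), with 0.33 (adjusted p = 0.324) in the cells led by ISC markers. The naming rule gave Defa21 (4.71), Cyp2b10 (4.32), Gm7849 (4.17), Defa22 (4.09), Cyp3a11 (4.06), Defa29 (3.98), Ang4 (3.98), Gm15292 (3.94), Mptx2 (3.78) and AY761184 (3.69) as log2 differences of the largest rises, of which AY761184 lost its call without aged mouse 4 (adjusted p = 0.0521). Cyclin F (Ccnf, -6.40), the replication-linked histones Hist1h3b (-6.32) and Hist1h1b (-5.75) and the spindle or cytokinesis genes Iqgap3 (-6.14), Kif18b (-6.07), Ndc80 (-6.07), Ankle1 (-6.01), Sapcd2 (-5.77), Troap (-5.75) and Aspm (-5.75) had the largest falls, which describe the program that set these cells apart.

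Between aged and young mice, no gene of low-cycle cells passed the test. Of 17481 genes 0 rose and 0 fell (0% in either direction) by edgeR with adjustment over all of them, where 927 had an unadjusted p below 0.05, DESeq2 called 101 and limma voom 0. Without aged mouse 1 edgeR called 26 genes and without aged mouse 3 it called 1. In simulated counts this test recovered 4.19% of genes changed by 1 on the log2 scale and 48.9% of those changed by 2. The 0 calls therefore do not show that the ages were alike. All aged mice lay above all young mice in 2.67% of genes and below them in 3.07%. The genes with the lowest p values are therefore given by their values.

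Dmbt1, a secreted scavenger receptor of mucosal epithelia, stood at 33.0, 41.3 and 34.9 CPM in low-cycle cells of young mice 1, 2 and 3 and at 426, 339, 124 and 226 CPM in those of aged mice 1, 2, 3 and 4. No aged mouse overlapped with a young one, and aged mouse 3 was the lowest of the aged. The log2 difference was 2.94 (SE 0.39, edgeR adjusted p = 0.165), and in the cells led by ISC markers it was 3.00 (adjusted p = 0.04). Rps4l, annotated as a transcribed processed pseudogene and close in sequence to a ribosomal protein gene, so that reads could be shared, stood at 15.7, 27.3 and 27.6 CPM in young mice 1, 2 and 3 and at 2.37, 1.30, 1.13 and 0.633 CPM in aged mice 1, 2, 3 and 4. It too was without overlap, with a log2 difference of -4.09 (SE 0.49, adjusted p = 0.133), and -3.91 (adjusted p = 0.04) in the cells led by ISC markers. In G2 and mitosis cells Dmbt1 stood at 125 to 294 CPM in young and 409 to 564 CPM in aged mice, and it fell by 1.63 on the log2 scale in low-cycle cells against these, in 7 of 7 mice (edgeR adjusted p = 0.0061). Dmbt1 lies at chr7:131032053-131121630 and Rps4l at chr6:148354656-148355598 (GRCm38, GENCODE M21).

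Ly6e, a membrane protein of the Ly6 family, stood at 65.0, 150 and 129 CPM in young mice 1, 2 and 3 and at 244, 464, 449 and 587 CPM in aged mice 1, 2, 3 and 4 (log2 difference 1.93, SE 0.36, edgeR adjusted p = 0.478). Without aged mouse 1, its adjusted p was 0.0402. Galnt12, which starts mucin-type glycosylation, stood at 72.5, 59.4 and 40.8 CPM in young and at 96.6, 134, 168 and 153 CPM in aged mice (log2 difference 1.26, adjusted p = 0.478). Both genes were without overlap between the ages. Cyp2c68 (log2 difference 1.85), Gm1123 (1.19) and Nucb2 (2.02) were the other genes given by the naming rule as higher in aged mice, also without overlap, and Rps4l, Ly6e and Galnt12 were in a list of 12 genes known from earlier results on these cells. That list is therefore not independent evidence. Of its genes 5 lay above and 3 below without overlap, where 2.67% and 3.07% of all genes did.

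Slc5a8, a sodium-coupled transporter of short-chain fatty acids, stood at 41.1, 20.6 and 45.1 CPM in young mice 1, 2 and 3 and at 9.74, 11.6, 7.46 and 9.02 CPM in aged mice 1, 2, 3 and 4 (log2 difference -1.90, SE 0.32, edgeR adjusted p = 0.382). Ephb3, a receptor that sorts cells along the crypt and is a Wnt target, stood at 101, 62.3 and 87.6 CPM in young and at 39.6, 47.8, 43.6 and 50.9 CPM in aged mice (log2 difference -0.87, SE 0.21, adjusted p = 0.627). The aged values of both genes lay close together and below each young value. Pdgfa averaged 199 CPM ± 42.6 (SD) over the 3 young mice and 100.4 CPM ± 23.9 (SD) over the 4 aged mice (log2 difference -0.98, adjusted p = 0.627). Elmo1, an activator of Rac signaling (log2 difference -0.94), and Rdh10, a retinol dehydrogenase (-0.79), were the other genes of the rule that were lower in aged mice, without overlap.

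**Figure D5:**
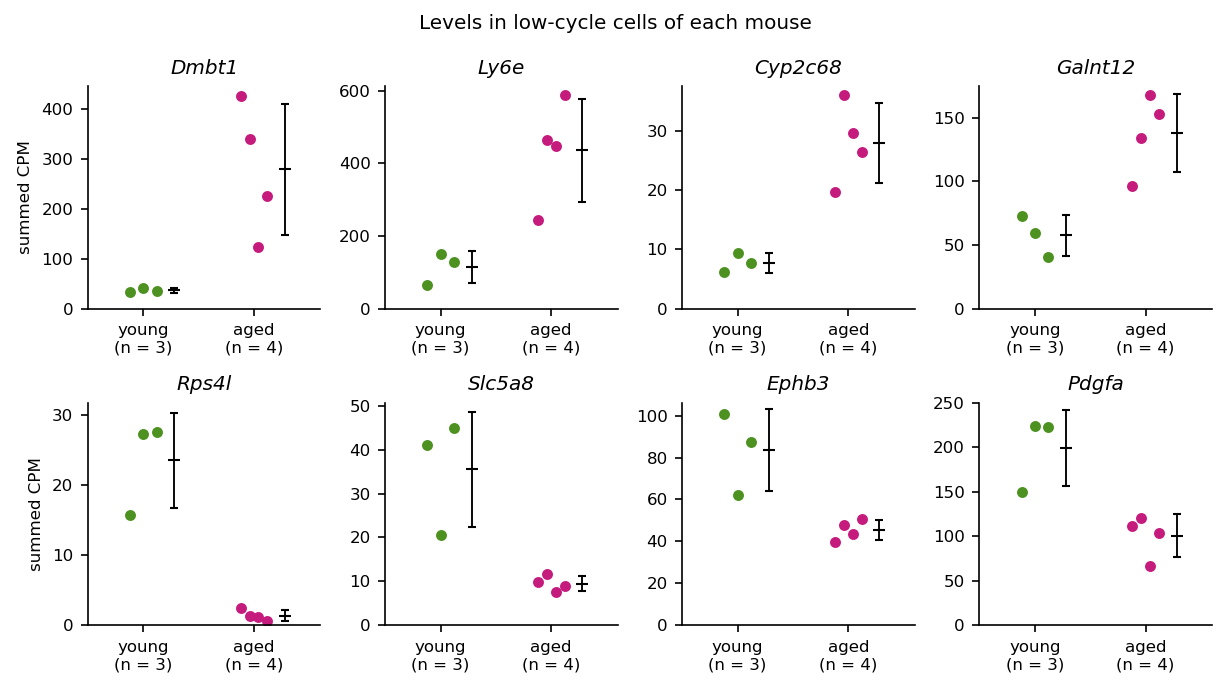
Summed CPM (vertical axis, from 0) of 8 genes in low-cycle cells, with a point for each of 3 young and 4 aged mice and bars for mean ± SD. The ages do not overlap in any of these genes, which were chosen for small p values or from earlier results, and none passed the test over all genes.

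Of the 18 ISC markers 16 had lower values in low-cycle cells of aged mice, with a median log2 difference of -0.30 where that of all genes was 0.01, and 0 passed. Soat1 stood at 780, 765 and 898 CPM in young mice 1, 2 and 3 and at 573, 563, 383 and 648 CPM in aged mice 1, 2, 3 and 4, without overlap (log2 difference -0.58, edgeR adjusted p = 0.852). Gkn3 (-1.05), Rnf43 (-0.47) and Smoc2 (-0.41) were also below without overlap, as were 3.07% of all genes. Of 16 Wnt targets 14 had lower values, with a median of -0.35. Ephb3, Nkd1 (-1.01), Rnf43 and Ephb2 (-0.13) were below without overlap, where 3.07% of all genes were. Where ISC markers led, the medians were -0.17 for ISC markers and -0.20 for Wnt targets. The ISC markers themselves helped decide which cells that fit kept. For Lgr5 and Olfm4, which chose the cells, the median was -0.23 in all low-cycle cells and -0.06 where ISC markers led. Rnf43, Znrf3, Tnfrsf19, Sox9, Ascl2 and Axin2 are in both lists.

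Single markers of other cells mostly had higher fitted values in low-cycle cells of aged mice, but aged mouse 1 went the other way in their sums. All 12 enterocyte markers had higher values, with a median log2 difference of 1.25, as did 10 of 11 Paneth markers (median 1.44) and 7 of 8 goblet markers (median 1.75), and 0 passed. Enterocyte markers summed to 1813, 1756 and 1725 CPM in young mice 1, 2 and 3 and to 977, 3200, 4487 and 3407 CPM in aged mice 1, 2, 3 and 4. Paneth markers summed to 40913, 19528 and 11894 CPM in young mice 1, 2 and 3 and to 10920, 46334, 157920 and 41502 CPM in aged mice 1, 2, 3 and 4. Aged mouse 1 lay below every young mouse in both sums and, at 173 CPM against 613 to 998 CPM, in that of goblet markers. The sums of the other 3 aged mice exceeded those of all young mice, and the Paneth sum of aged mouse 3 was far above the rest. The part of these markers in the age differences of other genes was not tested. In the cells led by ISC markers the medians were 0.27 for enterocyte, 0.19 for Paneth and 2.01 for goblet markers. These same lists decided which cells that fit left out. Of the 38 adhesion genes 24 had lower values in aged mice, with a median of -0.07, and 0 passed. Ephb3, Ephb2 and Ctnnd1, the catenin p120 (-0.57), were below without overlap, where 3.07% of all genes were. Of 20 further mitosis genes 19 had higher values in aged mice, with a median of 0.79 and 0.61 in the cells led by ISC markers, and all cells had been selected on the same mitosis cut. Among genes that restrain the cycle, 11 of 23 had higher and 12 lower values, and Mxd4 differed by -0.11.

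The age difference in low-cycle cells was also set against that in the other cells of the base set. Of 20061 genes 0 passed the edgeR test of this difference (0%), where 694 had an unadjusted p below 0.05, DESeq2 called 13 and limma voom 1. In simulated counts this test recovered 2.55% of genes changed by 1 on the log2 scale and 42.9% of those changed by 2. For Dmbt1 the age difference was 1.52 larger on the log2 scale in low-cycle than in other cells (unadjusted p = 0.00572, adjusted p = 1.00). For Ephb3 the difference of the age differences was -0.77 (adjusted p = 1.00). The goblet genes Ern2 (2.15) and Agr2 (2.62), the ribonuclease Rnase4 (0.46) and the gut hormone gene Gip (11.5) had the lowest p values among positive differences and did not pass. Gip belongs to the enteroendocrine markers, which led in 1 low-cycle cell, of aged mouse 3, where they summed to 8044 CPM against 1.80 to 601 CPM in low-cycle cells of the other mice.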

How the data were processed

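Single-end reads of 1920 sorted cells were mapped by the authors to GRCm38 with HISAT2 and checked with Picard, and their processing notes also name HTSeq. The table the authors deposited holds raw read counts, 1 whole number for each gene in each cell. The sources used here do not give the annotation or strand setting of the counting. Of 55471 gene identifiers 55144 were matched to symbols of GENCODE M21, and the others held 0.0307% of counts. Cells under 1000 detected genes were excluded, no doublet caller was run, and each column was assigned to a mouse by its label. CPM values are counts scaled to a cell's or a sum's total. The reads have no molecular identifiers, so depth limits only the counting error.

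Counts were summed per mouse and state (21 sums), since cells of a mouse are not replicates. Sums were compared with edgeR 4.0.16 in R 4.3.3, by the quasi-likelihood test after TMM scaling and filterByExpr, with p values adjusted by Benjamini-Hochberg (threshold 0.05) and, within mice, with the mouse as a block. Single values per mouse went into two-sided exact permutation tests (scipy 1.17.1). Alternatives were DESeq2 1.42.0, limma voom 3.58.1, DESeq2 size factors, no filter, cells weighted equally, reads thinned to 100000 and at least 2500 detected genes. Others were a score pseudocount of 10, cuts within each mouse and only cells led by ISC markers. Further ones were blocks by replicate number or by the code in the cell names, and each mouse left out.

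Members and gene lists were chosen with earlier results of these data known. Besides list members, genes are named by a rule: the 10 largest rises and falls past the threshold with an average log2 CPM of at least 4 and the same direction in 7 mice or no overlap between ages, or, where fewer than 5 passed, the 5 lowest p values. Of the genes this rule gave, 1 is not reported here. The scripts were tested on simulated data.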

Additional observations from a re-analysis of the deposited data

Results flagged for a closer look

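Of 48 values per group that were examined for a mouse far from the others, 3 stood apart, where chance gives about 1 in 20, and each concerned aged mouse 3, which had the fewest low-cycle cells. Nucb2 was at 66.9 CPM in low-cycle cells of aged mouse 3 and at no more than 28.0 CPM in those of the other aged mice. Elmo1 was at 50.9 CPM in low-cycle cells of aged mouse 3, below 74.6 CPM in the next aged mouse. The log2 ratio (CPM + 1) of Lyz1 in low-cycle cells to G2 and mitosis cells was 6.52 in aged mouse 3, against 3.80 in the next of the 7 mice.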

How the results depend on the processing

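The difference in the share of low-cycle cells between ages was -9.13 to -4.46 points over the other cell filters, score settings and thinning. It ranged from -9.96 to 0.983 when single mice were left out and was 3.14 within codes of the cell names that held both ages. The lower number of detected genes against S-phase cells held in each alternative and ranged from -924 to -804 when single mice were left out, and the difference in reads ranged from -30543 to -18248. Between ages edgeR called 0 genes, DESeq2 101, edgeR without a filter on low counts 3, with cells weighted equally 1, with thinned reads 2, in cells led by ISC markers 2 and with cuts within each mouse 1, and 0 to 26 with single mice left out. Cells weighted equally shifted the median of all genes to -0.14. Against S-phase cells the 1222 calls became 2335 with DESeq2, 2921 with cells weighted equally, 1954 with thinned reads, 559 with no replicate block (82 rises), and 699 to 1057 with single mice left out. They became 962 with cuts set within each mouse (257 rises). With those cuts Btg2 (edgeR adjusted p = 0.0562), Pdcd4 (0.17), Cdkn2b (0.108), Ncl (0.196) and Npm1 (0.0589) also lost their calls. Against G2 and mitosis cells the 3289 calls became 2367 to 3203 with single mice left out, 4496 with DESeq2, 4110 with limma voom, 4326 with thinned reads, 4843 with cells weighted equally, 2530 with no replicate block and 2822 to 3312 in the other fits. The test of the difference between age differences gave 13 calls with DESeq2, 1 with limma voom, 3 with no filter, 4 with thinned reads, and 0 to 0 with single mice left out. In the cells led by ISC markers the direction turned for Defa30 against S-phase cells (-0.049) and for Defa29 (-0.21), Gm15292 (-0.72) and Mptx2 (-0.42) against G2 and mitosis cells. The cause of these changes was not tested.

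The replicate numbers did not pair the mice, since the correlations of deviations between same-numbered young and aged mice were -0.0084, 0.0231 and -0.0337. With the replicate number as a block the share differed by -4.01 points (exact permutation test, p = 1) and 0 genes passed between ages.

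The scores, the thresholds on Lgr5 and Olfm4 and the genes compared come from the same counts. Aged mouse 3 contributed 21 low-cycle cells, and its values carry the most counting error.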

Other observations

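Mitochondrial transcripts (24 genes) summed to 65685 to 96132 CPM in low-cycle cells and to 51977 to 83259 CPM in S-phase cells. Of these genes 5 rose against S-phase cells (edgeR adjusted p below 0.05), where 2.47% of all genes did. Against G2 and mitosis cells 2 of the 24 rose, a share like the 8.69% of all genes, and 16 had lower values (median log2 difference -0.08). The heat shock gene Hsp90aa1 ranged from 157 to 337 CPM in low-cycle cells and from 322 to 533 CPM in G2 and mitosis cells, and it fell by 0.86 on the log2 scale in 7 of 7 mice (edgeR adjusted p = 7.78e-05). Irf7, a regulator of interferon responses, ranged from 9.83 to 32.3 CPM and from 5.08 to 13.7 CPM and rose by 0.94 in 7 of 7 mice (edgeR adjusted p = 0.00969), with 0.60 (adjusted p = 0.112) in the cells led by ISC markers.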
